A study of Homo sapiens with 6 samples.

Results

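The liver lineage transcription factors described here are the 6 genes FOXA1, FOXA3, GATA6, ONECUT2, NR0B2 and FOXQ1, found by gene symbol in a table of 10191 RefSeq transcripts. Each symbol had 1 row, so the group holds 6 of 10191 rows, and all 6 were among the 8600 transcripts with enough reads to be tested. Total RNA was taken from Huh7 cells, a long-established line from a human liver carcinoma, 1 week after the cells had been selected with puromycin. In 3 libraries the cells carried a short hairpin RNA directed at ABL1, which encodes a tyrosine kinase of the cytoplasm and nucleus (ABL1 knockdown), and in 3 libraries they carried a scrambled hairpin (scrambled). Both groups therefore carry a hairpin construct and passed the same selection, and no untransduced cells are part of the design. Everything rests on a single cell line. Neither the hairpin sequence nor the number of hairpins is stated. The labels do not say that replicates were separate cultures, and each p-value therefore reflects the spread among these libraries alone, which may be technical.

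Hepatocytes arise from endoderm under a network of transcription factors that keep each other and the genes of mature liver switched on. FOXA factors are pioneer factors: their forkhead domain binds DNA wrapped in nucleosomes and opens liver enhancers for others. GATA6 works beside them in early endoderm and the liver bud, and cut homeobox factors of the ONECUT family act in the choice between hepatocyte and bile duct fate. NR0B2, also called SHP, is a nuclear receptor without a DNA-binding domain that represses other receptors and closes the feedback loop by which bile acids limit their own synthesis. FOXQ1 is a forkhead factor known from epithelial tumours, where it is tied to epithelial-mesenchymal transition.

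Of the 6 factors, 5 had less RNA in ABL1 knockdown than in scrambled libraries, and ONECUT2 had more. FOXQ1 differed by 6.06-fold, NR0B2 by 2.56-fold, FOXA3 by 1.73-fold, GATA6 by 1.43-fold and FOXA1 by 1.39-fold, each lower in knockdown, while ONECUT2 was 1.31-fold higher in knockdown. All 6 passed limma's test at an adjusted p under 0.05, and in all 6 the groups did not overlap. The background is high in this comparison: 51.9% of all tested transcripts passed the same threshold (24.5% higher and 27.4% lower in knockdown), and the groups did not overlap in 58.9%. As deposited, 2105 transcripts were called higher and 2355 lower; with equal library totals these numbers were 2982 and 1690. The genes were also chosen with results of these data known, so the count of 6 of 6 is a description of the chosen genes and says nothing about liver factors as a class.

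Stretches of DNA upstream of the start site are shown for those factors that have an entry in the RefSeq promoter table (GRCh38.p14), which are FOXA1, FOXA3, GATA6, FOXQ1 and ONECUT2, so that their letters can be compared. The window searched was the 250 bases before the start in RefSeq, which differs from the transcript start in GENCODE 29 that is given further on for each gene. GENCODE 29 counts 99 of these bases in FOXA1, 182 in FOXA3 and 146 in GATA6 as exon of the gene, and 0 in ONECUT2 and FOXQ1. The forkhead motif, spelled TGTTTAC or TGTTTGC or TGTTTAT or TGTTTGT on either strand, occurred in the windows of FOXA1, GATA6 and FOXQ1. It occurred in 13.3% of 35116 promoters of the same length. The 30 bases around each match are printed 5′ to 3′ on the strand of the gene, with the match in capitals, in the order FOXA1 (chr14:37595467-37595496, minus strand), GATA6 (chr18:22169462-22169491, plus strand) and FOXQ1 (chr6:1311887-1311916, plus strand).
FOXA1: ttacactgctttGCAAACAaagtgagggcc
GATA6: ttcggcgagcgcTGTTTGTttagggctcgg
FOXQ1: ggccgacccaaaACAAACAacctgcgccag
The first base of the match lay 235 bases before the RefSeq start in FOXA1, 115 in GATA6 and 199 in FOXQ1. By the GENCODE 29 transcripts, it lay 450 bases before the start in FOXA1 and 541 in FOXQ1, but 31 bases after the start in GATA6, where the whole match is exonic. FOXA1 and FOXQ1 hold the complement of the motif and GATA6 the motif as spelled.

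The other promoters did not hold the forkhead letters in this window, which says nothing about binding of the factor. FOXA3 held the letters of a TATA box, TATAAA, from 30 bases before the RefSeq start (chr19:45864284-45864313, plus strand). The match lay 36 bases after the GENCODE 29 start, in the exon of that transcript. These letters occurred in 10.7% of promoters.
FOXA3: gggtgtcccggcTATAAAgcgtggccgcct
FOXA3 also held AGGTCA, the core recognised by many nuclear receptors (12.1% of promoters). It further held TGAATCA, a match to TGANTCA (6.57%), a loose form of the AP-1 motif that allows any base at N. CCAAT occurred in GATA6 and FOXQ1 and in 32% of promoters. The GATA motif, AGATAA or TGATAA (14.6% of promoters), ATTGAT, a core of cut homeobox sites (5.58%), and the E box CACGTG (6.34%) were each found in 0 of the 5 windows. All motifs were searched on both strands, and matches of different motifs did not overlap each other.

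The whole windows of FOXQ1, with the greatest difference of the 6, and of ONECUT2, the factor that was higher in knockdown, are set beside each other (chr6:1311848-1312097 and chr18:57435124-57435373, both plus strand). Capitals mark the forkhead match.
FOXQ1: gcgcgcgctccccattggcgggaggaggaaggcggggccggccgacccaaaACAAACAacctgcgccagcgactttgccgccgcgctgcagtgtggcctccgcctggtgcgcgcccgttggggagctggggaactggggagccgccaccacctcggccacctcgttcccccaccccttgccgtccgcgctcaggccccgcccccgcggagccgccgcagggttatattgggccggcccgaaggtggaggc
ONECUT2: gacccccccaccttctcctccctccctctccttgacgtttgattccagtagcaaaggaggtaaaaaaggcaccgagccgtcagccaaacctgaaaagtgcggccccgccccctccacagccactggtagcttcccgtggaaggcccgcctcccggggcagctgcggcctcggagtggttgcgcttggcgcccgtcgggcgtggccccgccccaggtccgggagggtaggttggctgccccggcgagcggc
Both are rich in G and C: 74% of bases in FOXQ1 and 68.8% in ONECUT2, against a median of 58% over all windows.

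The values below are normalized counts, the whole reads recovered from the deposited signal multiplied by a scale factor per library that the authors' values carry. A log2 change is the mean of log2(normalized count + 1) in knockdown minus that in scrambled libraries, which understates the change of low genes. Total recovered reads were 6651413 to 7952645 in the knockdown libraries and 7713451 to 10487862 in the scrambled libraries. After scaling the knockdown libraries summed to 7517864 to 7779025 and the scrambled libraries to 8573339 to 8744040 normalized counts. Setting all totals equal shifted the median log2 change of all transcripts by 0.18. The targeted gene was read first. Its transcript NM_007313 had 13.7, 10.2 and 9.28 normalized counts in knockdown and 73.4, 71.7 and 71.3 in scrambled libraries (log2 change -2.62, limma adjusted p = 4.11e-06). NM_005157, which differs from it at the 5′ end, had 17.6, 19.2 and 24.8 in knockdown and 9.17, 6.72 and 10.3 in scrambled libraries (log2 change 1.15, adjusted p = 0.0180). The NM_005157 values rest on 18, 17 and 24 reads in knockdown and 11, 6 and 11 in scrambled libraries. The row of NM_007313 thus fell and that of NM_005157 did not. How reads shared by these transcripts were counted is not stated, so the rows do not show that the knockdown is specific to 1 transcript.

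**Figure D1:**
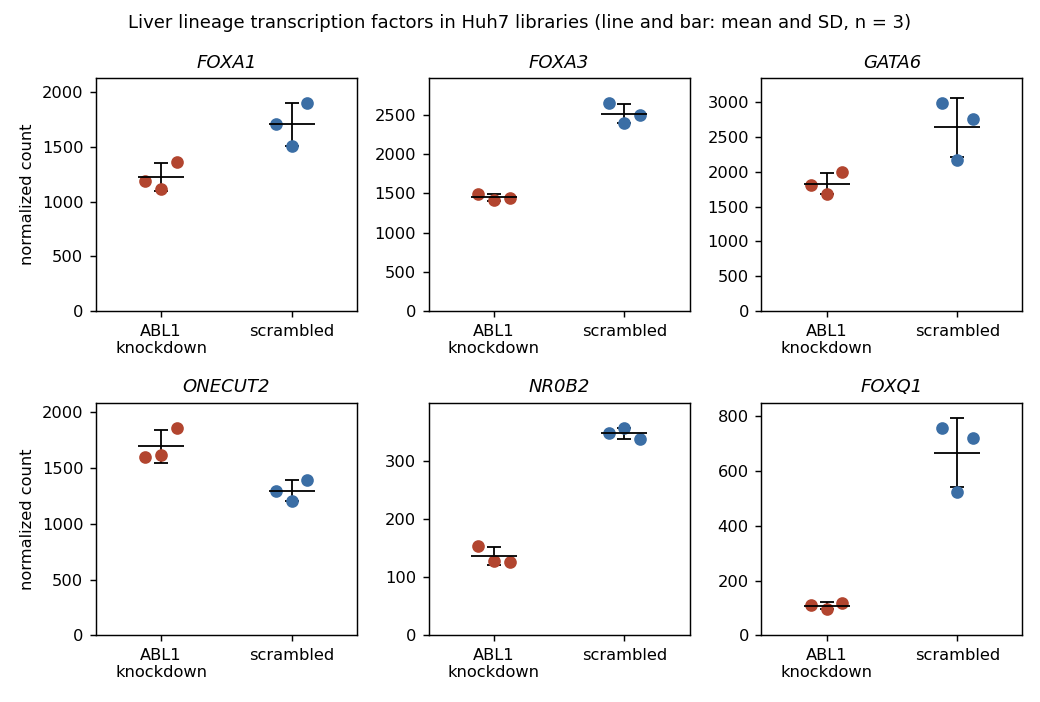
Normalized counts of the 6 factors in each library, with ABL1 knockdown on the left and scrambled on the right of each panel; the line is the mean and the bar the SD (n = 3 each). In 5 panels every knockdown library lies below every scrambled library, and in the ONECUT2 panel every knockdown library lies above.

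FOXA1 (NM_004496) encodes the pioneer factor FOXA1 and lies on chromosome 14 from 37589984 to 37595034 on the minus strand of GRCh38, with 2 exons. It had 1186, 1114 and 1364 normalized counts in knockdown and 1708, 1509 and 1896 in scrambled libraries. The highest knockdown library lay below the lowest scrambled library, with a narrow gap between them. The means were 1221 ± 128 in knockdown and 1704 ± 194 in scrambled libraries (SD, n = 3 each), a log2 change of -0.48 (SE 0.10, 95% interval -0.70 to -0.26, limma adjusted p = 0.00158). Of all tested transcripts, 23.4% had a change at or below this one.

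FOXA3 (NM_004497) encodes a further FOXA family member of hepatocytes and lies on chromosome 19 from 45864260 to 45873797 on the plus strand, with 2 exons. It had 1493, 1412 and 1440 normalized counts in knockdown and 2645, 2401 and 2497 in scrambled libraries. Its libraries agreed closely within each group, and the gap between groups was several times the spread. The log2 change was -0.79 (SE 0.07, 95% interval -0.95 to -0.64, limma adjusted p = 1.79e-06). The pooled reads of knockdown over scrambled libraries, adjusted for scale, gave a ratio of 0.574 for FOXA3 (95% interval 0.553 to 0.596) and of 0.714 for FOXA1 (0.684 to 0.745). These intervals hold counting error alone and leave out the spread between libraries. PCR copies of a molecule are not independent, so the intervals may be too narrow even for counting error.

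The falls of the 2 FOXA genes were compared by their ratio. The log2 ratio of FOXA1 to FOXA3 within a library, which does not depend on the scaling, was -0.25 ± 0.15 in knockdown and -0.57 ± 0.15 in scrambled libraries (SD, n = 3 each). The difference was 0.32, and the groups did not overlap (exact two-sided permutation p = 0.1, the smallest that 3 against 3 libraries can give). The transcript of the third FOXA gene, FOXA2, was close to the floor of the table. How reads shared by transcripts of a gene were counted is not stated, so a low row need not mean a low gene. FOXA2 had 6.85, 12.4 and 21.7 normalized counts in knockdown and 13.3, 16.8 and 5.63 in scrambled libraries, with overlapping groups (log2 change 0.17, SE 0.50, limma adjusted p = 0.806). Per kilobase of transcript, the FOXA1 level was 427 ± 44.9 in knockdown and 595 ± 67.7 in scrambled libraries, and the FOXA3 level was 728 ± 20.7 in knockdown and 1264 ± 62.0 in scrambled libraries.

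GATA6 (NM_005257), a zinc finger factor of endoderm, lies on chromosome 18 from 22169443 to 22202528 on the plus strand, with 7 exons. It had 1816, 1681 and 1990 normalized counts in knockdown and 2980, 2162 and 2760 in scrambled libraries. The groups did not overlap, and the second scrambled library was the low one of its group. Means were 1829 ± 155 in knockdown and 2634 ± 423 in scrambled libraries (SD, n = 3 each), and the log2 change was -0.52 (SE 0.11, 95% interval -0.76 to -0.28, limma adjusted p = 0.0018). GATA4 is the relative that shares the role of GATA6 in liver bud formation. The GATA4 transcript in the table had 12.7, 5.65 and 7.22 normalized counts in knockdown and 8.34, 6.72 and 3.75 in scrambled libraries. It fell below the filter of a mean of 10 and was not tested, and the level of the whole gene is not known.

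GATA6 has an antisense neighbour, GATA6-AS1, on the opposite strand. The GATA6-AS1 transcript in the table (NR_102763) ends at 22168968, before the GATA6 transcript begins; other GENCODE 29 models of the pair share 240 exon bases, and the strand setting of the counting is not stated. GATA6-AS1 had 129 ± 14.6 normalized counts in knockdown and 133 ± 19.1 in scrambled libraries (SD, n = 3 each), a log2 change of -0.04 (limma adjusted p = 0.860). Another antisense gene, AC091588.3, shares 321 exon bases with GATA6 models and was not analysed here. No difference between the falls of FOXA1 and GATA6 was resolved: their log2 ratio was -0.58 ± 0.04 in knockdown and -0.62 ± 0.16 in scrambled libraries (SD, n = 3 each), with overlapping groups (difference 0.04, exact two-sided permutation p = 1). This was the only pair of 15 whose ratio overlapped between groups. The other 14 pairs did not overlap, each with the smallest possible p of 0.1, which does not pass 0.05 before or after adjustment. The share of such pairs among all transcripts was not computed, and for single transcripts the groups did not overlap in 58.9%. The count therefore describes these chosen genes only.

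ONECUT2 (NM_004852), a cut homeobox factor, lies on chromosome 18 from 57435685 to 57491297 on the plus strand, with 2 exons and a long transcript of 16121 bases. It had 1601, 1615 and 1859 normalized counts in knockdown and 1291, 1200 and 1391 in scrambled libraries. All knockdown libraries lay above all scrambled libraries. Means were 1692 ± 145 in knockdown and 1294 ± 95.1 in scrambled libraries (SD, n = 3 each), and the log2 change was 0.39 (SE 0.09, 95% interval 0.20 to 0.57, limma adjusted p = 0.00254). Its paralog ONECUT1, also called HNF6, had 545, 470 and 687 in knockdown and 569, 398 and 502 in scrambled libraries. The ONECUT1 groups overlapped (log2 change 0.21, SE 0.15, limma adjusted p = 0.263), and with equal library totals ONECUT1 passed the threshold (0.38, adjusted p = 0.0419). The difference between the paralogs was not resolved: the log2 ratio of ONECUT2 to ONECUT1 was 1.59 ± 0.17 in knockdown and 1.41 ± 0.21 in scrambled libraries (SD, n = 3 each; exact two-sided permutation p = 0.5).

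ONECUT2 and the FOXA genes moved apart within the libraries. The log2 ratio of FOXA3 to ONECUT2 was -0.22 ± 0.14 in knockdown and 0.96 ± 0.10 in scrambled libraries (SD, n = 3 each), a difference of -1.18. The log2 ratio of FOXA1 to ONECUT2 was -0.47 ± 0.06 in knockdown and 0.39 ± 0.06 in scrambled libraries, a difference of -0.87. Both differences had an exact two-sided permutation p of 0.1.

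NR0B2 (NM_021969), the repressor in bile acid feedback, lies on chromosome 1 from 26911489 to 26913966 on the minus strand, with 2 exons. It had 154, 128 and 126 normalized counts in knockdown and 347, 356 and 338 in scrambled libraries. The scrambled libraries lay close to each other, and each was far above every knockdown library. The log2 change was -1.35 (SE 0.12, 95% interval -1.62 to -1.09, limma adjusted p = 1.68e-06), and 4.81% of tested transcripts had a change at or below it. These values rest on 157, 113 and 122 reads in knockdown and 416, 318 and 360 in scrambled libraries (pooled ratio 0.393, 95% interval 0.350 to 0.442).

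NR0B2 lies beside NUDC on the opposite strand. The NUDC transcript in the table (NM_006600) begins at 26921726, beyond the end of NR0B2, while a longer model of NUDC in GENCODE 29 spans NR0B2 and shares 0 exon bases with it. NUDC, a dynein-associated factor, had 2019 ± 143 normalized counts in knockdown and 2782 ± 157 in scrambled libraries (SD, n = 3 each; log2 change -0.46, limma adjusted p = 0.000334). The log2 ratio of NR0B2 to NUDC was -3.90 ± 0.09 in knockdown and -3.00 ± 0.05 in scrambled libraries (difference -0.90, exact two-sided permutation p = 0.1). The ratio groups did not overlap, at the smallest p the design allows. Around NR0B2, 10 other genes, NUDC among them, were tested within 200 kb, of which 5 were lower and 1 was higher in knockdown. Over all tested transcripts, 27.4% were lower and 24.5% higher. Around FOXA3, 4 of 9 were lower and 0 higher, around ONECUT2 1 of 2 was higher, around FOXA1 and GATA6 0 of 1 each passed, and FOXQ1 had 0 tested neighbours.

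FOXQ1 (NM_033260), a forkhead factor encoded in a single exon, lies on chromosome 6 from 1312440 to 1314748 on the plus strand. It had 112, 94.9 and 118 normalized counts in knockdown and 758, 522 and 722 in scrambled libraries. The knockdown libraries lay close together, and even the lowest scrambled library stood far above them. Means were 108 ± 11.9 in knockdown and 667 ± 127 in scrambled libraries (SD, n = 3 each), a log2 change of -2.60 (SE 0.15, 95% interval -2.92 to -2.27, limma adjusted p = 4.73e-08). FOXQ1 ranked 66 of 8600 transcripts by size of change, and 0.384% of transcripts had a change at or below it. It rests on 115, 84 and 114 reads in knockdown and 909, 466 and 769 in scrambled libraries (pooled ratio 0.160, 95% interval 0.142 to 0.181).

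The scrambled libraries varied for FOXQ1 and GATA6 in the same direction, so their ratio was tight within each group: the log2 ratio of GATA6 to FOXQ1 was 4.08 ± 0.07 in knockdown and 1.99 ± 0.06 in scrambled libraries (SD, n = 3 each; exact two-sided permutation p = 0.1). Within the scrambled group, replicate 2 was the lowest library for 5 of the 6 factors, and within the knockdown group replicate 2 was the lowest for 4 and replicate 3 the highest for 4. Both replicate 2 libraries had the fewest reads of their group. Whether depth plays a part in this order was not tested. Without the second scrambled library, all 6 factors still passed the threshold in the same direction.

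Ordered by level per kilobase, FOXA3 stood highest in both groups, at 728 in knockdown and 1264 in scrambled libraries. GATA6 and FOXA1 followed, with 485 ± 41.1 and 427 ± 44.9 in knockdown and 699 ± 112 and 595 ± 67.7 in scrambled libraries, and these neighbours overlapped in both groups. NR0B2 and ONECUT2 came next in knockdown, at 117 ± 13.4 and 105 ± 8.99 per kilobase, again overlapping. In knockdown FOXQ1 was last at 46.9 ± 5.15 per kilobase, whereas in scrambled libraries its 289 ± 54.9 overlapped the 300.2 ± 8.07 of NR0B2, and ONECUT2 was last at 80.3 ± 5.90. These levels assume the whole annotated transcript, which is long in ONECUT2.

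**Figure D2:**
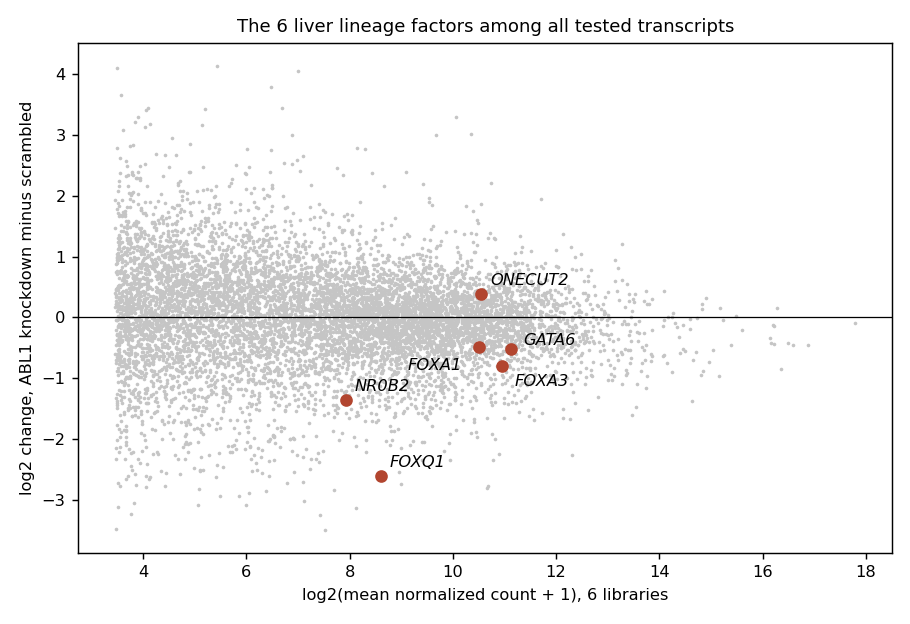
Log2 change (ABL1 knockdown minus scrambled) against log2 of the mean normalized count + 1 over 6 libraries, for all 8600 tested transcripts (grey) and the 6 factors (red). FOXQ1 lies near the lower edge of the cloud at -2.60, and FOXA1, GATA6 and ONECUT2 lie within its dense part.

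GC content moved with the change over all genes and is given here because the 6 factors differ in it. Among 8142 tested transcripts with a GENCODE 29 model, split into 5 equal classes of GC content, the median log2 change was 0.15 in the lowest class, which holds ONECUT2 (41.5% GC), and -0.17 in the highest class, which holds FOXA3 (60.8%) and FOXQ1 (62.2%). In the highest class 14.5% of transcripts were higher and 35.9% lower in knockdown, and in the lowest class 32.2% were higher and 22.2% lower. With the medians of GC classes removed, an alternative chosen after seeing the data, the log2 changes were -0.47 for FOXA1, -0.65 for FOXA3, -0.45 for GATA6, 0.31 for ONECUT2, -1.24 for NR0B2 and -2.42 for FOXQ1, and all 6 passed the threshold. Medians over 5 classes of transcript length lay between -0.04 and 0.01.

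Among 33 other liver transcription factors, 13 were tested, 1 was higher and 5 were lower in knockdown. Over all tested transcripts, 24.5% were higher and 27.4% lower. The 13 factors had a median log2 change of 0.13, against 0.00 over all tested transcripts. The median was 0.30 with equal library totals and 0.06 with quantile normalization. The genes that fell were DBP (-1.72) and HLF (-1.45), clock-controlled factors of the PAR bZIP family, CEBPD (-1.57), a factor of the acute phase response, HHEX (-0.40), a homeobox factor needed for the liver bud, and KLF15 (-0.26), a factor of fasting metabolism, which was named after its value was seen. KLF15 did not pass with quantile normalization (-0.16, adjusted p = 0.119), equal library totals (-0.09, adjusted p = 0.411) or the GC correction (-0.11, adjusted p = 0.178). It also failed without scrambled library 1 (-0.21) or 3 (-0.27) and without knockdown library 1 (-0.25) or 2 (-0.24), at adjusted p of 0.053 to 0.0859. HHEX was abundant, at 2695 ± 127 normalized counts in knockdown and 3561 ± 326 in scrambled libraries (SD, n = 3 each, limma adjusted p = 0.00119). PPARGC1A, a coactivator of gluconeogenic and mitochondrial genes, rose, with 261 ± 41.4 in knockdown and 129 ± 20.5 in scrambled libraries (log2 change 1.01, adjusted p = 0.000166). PROX1, a homeobox factor of hepatoblasts (0.13, adjusted p = 0.573), and NR5A2, a receptor that NR0B2 represses (0.59, adjusted p = 0.132), did not pass. HNF4A, CEBPA and NR1H4, central partners of the 6 factors, were not analysed here.

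**Figure D3:**
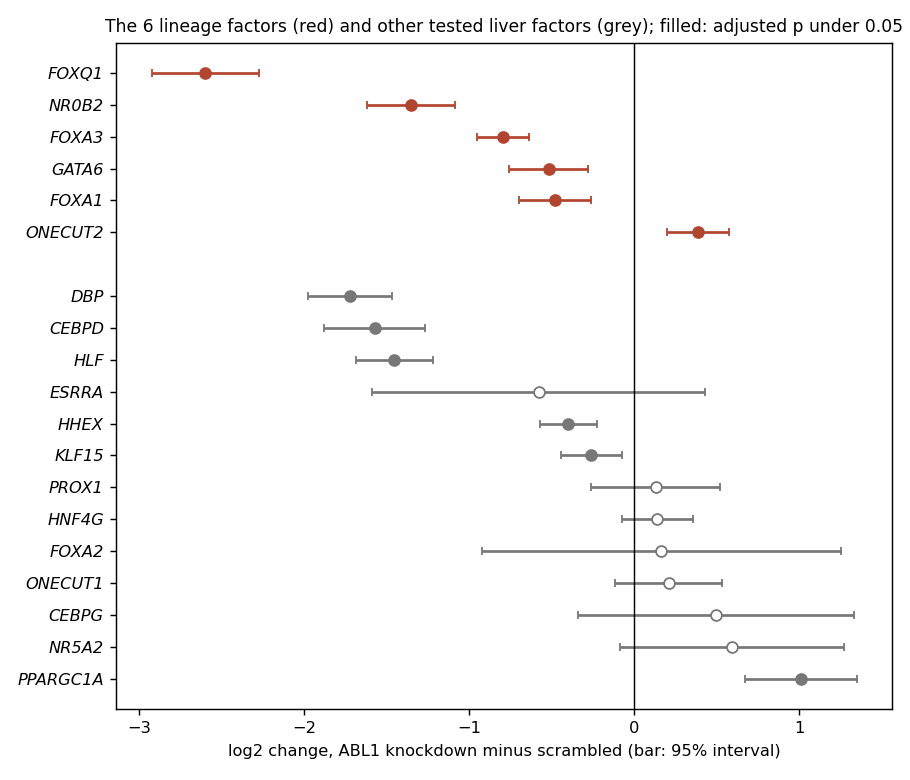
Log2 change (ABL1 knockdown minus scrambled) with its 95% interval for the 6 factors (red, top) and the 13 other tested liver transcription factors (grey); filled points passed an adjusted p of 0.05. The 6 intervals of the red points all exclude 0, and those of FOXA2, CEBPG and ESRRA are wide and include 0.

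Of 15 tested forkhead genes other than FOXA1, FOXA3 and FOXQ1, 7 were lower and 1 higher, against 27.4% and 24.5% of all tested transcripts. The list had a median log2 change of -0.64 (-0.47 with equal library totals). FOXE1 held that median, with 25 normalized counts in knockdown and 40 in scrambled libraries, and did not pass. The more abundant FOXK2 (0.04), FOXJ1 (-0.04) and FOXO1 (0.16) did not pass either. These genes were named after their values were seen. FOXK1 (-1.10), a repressor of autophagy genes, had 794 ± 79.6 normalized counts in knockdown and 1701 ± 174 in scrambled libraries (SD, n = 3 each, limma adjusted p = 1.59e-06). FOXN2 (-0.72), FOXD2 (-1.52) and FOXO6 (-2.04, with 13.4 normalized counts in knockdown and 51.4 in scrambled libraries) also fell, and FOXJ2 (0.59) rose. FOXE3 (-1.60), named after its value was seen, fell with few reads, and with a minimum mean of 50 the list had 3 genes lower. Of 6 tested GATA and cut homeobox genes and GATA cofactors, GATAD1 (1.13), a zinc finger protein of chromatin complexes, was higher and 0 were lower (median -0.30, and -0.13 with equal library totals), though 1 was called lower without the third knockdown library and 2 without the second scrambled library.

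The bile acid genes around NR0B2 had 11 tested members, 2 higher and 6 lower, against 24.5% and 27.4% of all tested transcripts. The list had a median of -0.48 (-0.31 with equal library totals). The export pumps and carriers ABCC3 (-2.33), SLC51A (-0.83) and SLC51B (-0.94), which move bile acids out across the basolateral membrane, fell, as did CYP27A1 (-0.56), an enzyme of the alternative synthesis route. The uptake carrier SLCO1B3 fell too (-0.66, adjusted p = 0.00998), and ABCC2, a canalicular export pump, did not pass (0.02, adjusted p = 0.887). ABCB11, the canalicular pump for bile salts, was below the filter (9.11 normalized counts in knockdown, 6.10 in scrambled libraries) and not tested. All 3 were named after their values were seen. ABCC3 had 37.2, 27.1 and 25.8 normalized counts in knockdown and 140, 167 and 155 in scrambled libraries (limma adjusted p = 1.05e-06). FGF19, the hormone that signals bile acid load to hepatocytes, was lower as well (-0.48, adjusted p = 0.000956), a gene named after its value was seen. KLB, the coreceptor of FGF19, rose to 8040 ± 35.6 in knockdown, against 5609 ± 327 in scrambled libraries (log2 change 0.52, adjusted p = 4.47e-05), and NCOR1, a corepressor, rose by 0.96. CYP7A1, the rate-limiting enzyme that NR0B2 represses in liver, was not analysed here.

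Hepatocyte product genes had 22 tested members, of which 10 were lower and 2 higher, against 27.4% and 24.5% of all tested transcripts. The list had a median of -0.15 that turned to 0.08 with equal library totals. RBP4 (-1.16), the retinol carrier, APOA2 (-0.97) and APOC3 (-0.81), lipoprotein components, and FGA (-0.85), a fibrinogen chain, fell. RBP4 had 8461 ± 130 normalized counts in knockdown and 18988 ± 995 in scrambled libraries (SD, n = 3 each, limma adjusted p = 5.72e-08). TDO2, a tryptophan-degrading enzyme, rose by 1.89, and the more abundant transcript of FGG, another fibrinogen chain, by 0.68 (NM_021870). The other FGG transcript, NM_000509, did not pass (0.24, adjusted p = 0.490), nor did FGG with reads summed per gene (0.51, adjusted p = 0.0804). NM_021870 no longer passed without the first scrambled library (0.43, adjusted p = 0.10) or without the second knockdown library (0.47, adjusted p = 0.112), and each of these left 1 gene higher, while 4 were higher without the second scrambled library. ALB, the defining product of hepatocytes, was abundant in every library. It had 63227 ± 4438 normalized counts in knockdown and 84502 ± 5717 in scrambled libraries (log2 change -0.42, limma adjusted p = 0.00153). With quantile normalization ALB did not pass (-0.11, adjusted p = 0.201). Among other abundant products TF (-0.44) and APOB (-0.20) fell, while AFP (-0.10), AMBP (0.15), AHSG (0.02) and VTN (0.14) did not pass. ALB and these other products were named after their values were seen.

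Endoderm and neighbouring lineage factors had 7 tested members, 5 of them lower and 0 higher, against 27.4% and 24.5% of all tested transcripts. The list had a median of -0.48 (-0.30 with equal library totals). CDX2 (-1.31), the intestinal homeobox factor, had 608 ± 37.7 normalized counts in knockdown and 1505 ± 78.3 in scrambled libraries (SD, n = 3 each, limma adjusted p = 9.75e-08). HES1 (-0.49), a Notch effector, SOX9 (-0.48), a factor of bile duct and progenitor cells, and KLF5 (-1.13), an epithelial factor, also fell, as did TEAD1 (-0.31), a partner of YAP, named after its value was seen. TEAD1 did not pass with equal library totals (-0.14, adjusted p = 0.179). Of 9 tested epithelial and mesenchymal genes, 5 were lower and 1 higher (median -0.31): the desmosome gene DSP (-1.05), the tight junction genes CLDN4 (-1.86) and CLDN1 (-0.31) and the keratin KRT19 (-0.83) fell, as did SNAI1 (-0.40), a repressor of epithelial genes named after its value was seen, and VIM, the mesenchymal filament vimentin, rose (1.11). CDH2 (0.08), ITGB1 (0.25) and EPCAM (-0.22) did not pass, and they too were named after their values were seen. The median of this list was -0.14 with equal library totals and -0.13 with quantile normalization. SNAI1 did not pass with equal library totals (-0.23, adjusted p = 0.0958), and CLDN1 did not pass with equal library totals (-0.14, adjusted p = 0.0946) or with quantile normalization (-0.10, adjusted p = 0.255).

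**Figure D4:**
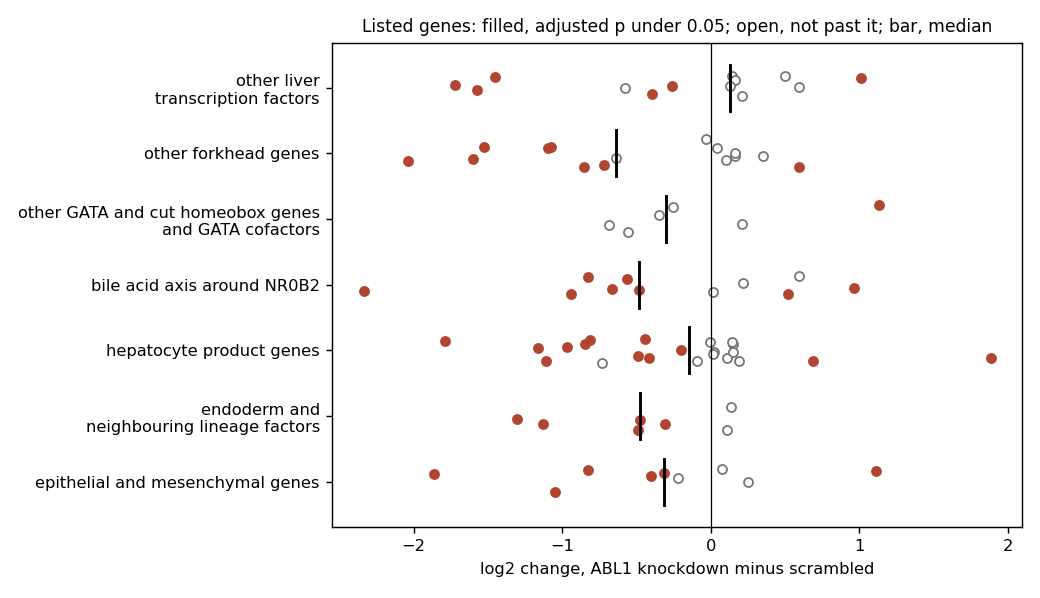
Log2 change (ABL1 knockdown minus scrambled) of every tested gene in 7 lists; filled points passed an adjusted p of 0.05, open points did not, and the bar is the median of the list. Filled points lie on both sides of 0 in 5 lists, all 5 of the endoderm list lie below 0, and the single one of the GATA and cut homeobox list lies above.

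Markers of other cell types moved with these groups. Over all tested transcripts, 24.5% were higher and 27.4% lower in knockdown. Summed levels of the biliary markers (7 of 8 in the table, 1 higher and 5 lower) were 8928 to 9394 normalized counts in knockdown and 13401 to 14205 in scrambled libraries. Fibroblast and stellate markers (6 of 8 in the table, 4 higher and 1 lower) summed to 13259 to 14609 in knockdown and 8912 to 9908 in scrambled libraries. Most of that sum came from COL1A2 (log2 change 0.62). COL3A1 (1.54), LUM (2.11) and PDGFRA (1.84) rose as well, while COL1A1 (-1.03) fell and PDGFRB (-0.12) did not pass. Endothelial markers (4 of 6, 1 higher and 3 lower) summed to 125 to 147 in knockdown and 176 to 204 in scrambled libraries. Immune markers (3 of 7, 1 higher and 2 lower) summed to 6544 to 7489 in knockdown and 5714 to 6331 in scrambled libraries. Nearly all of the immune sum came from LYZ (log2 change 0.21), while FCER1G (-0.79) and LAPTM5 (-2.39) fell. Hepatocyte markers (7 of 10, of which 3 of 6 tested were lower and 0 higher) summed to 237945 to 249833 in knockdown and 292501 to 312474 in scrambled libraries. No marker in the table was at 0 in both groups. The lowest over all libraries was FGB, a hepatocyte marker, with 14.4 normalized counts in knockdown and 4.95 in scrambled libraries, and LAPTM5, an immune marker, had 4.12 in knockdown and 24.6 in scrambled libraries. The defining markers KRT7, DCN, KDR and PTPRC were not analysed here. All libraries are of the Huh7 line, so these sums are levels of marker RNA in that line and not numbers of other cell types. In bulk RNA, fewer Huh7 cells with a marker and less of it per cell cannot be told apart. The part of these markers in the results was not tested.

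The transcripts whose values tracked each factor most closely over the 6 libraries are given as a description, since groups this far apart make many transcripts correlate. Among 4293 transcripts at or above the median level, 799 had a Pearson r over 0.95 with FOXA3, 792 with NR0B2 and 759 with FOXQ1, against 144 with GATA6, 97 with FOXA1 and 88 with ONECUT2. Closest to FOXA1 were EMD, ABCG8 and ZNF593, and closest to FOXA3 were GMCL1, H1FX and PLEKHG3. Closest to GATA6 were DCLRE1B, PGP and MCRIP2, and closest to ONECUT2 were CYSTM1, LIMD2 and PTPN21. NR0B2 was tracked by SLC30A9, CPN1 and ALDOC, and FOXQ1 by DUSP7, LOXL2 and ORAI1. For each factor the closest transcript had an r of at least 0.993 (n = 6 libraries, which share group and depth).

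**Figure D5:**
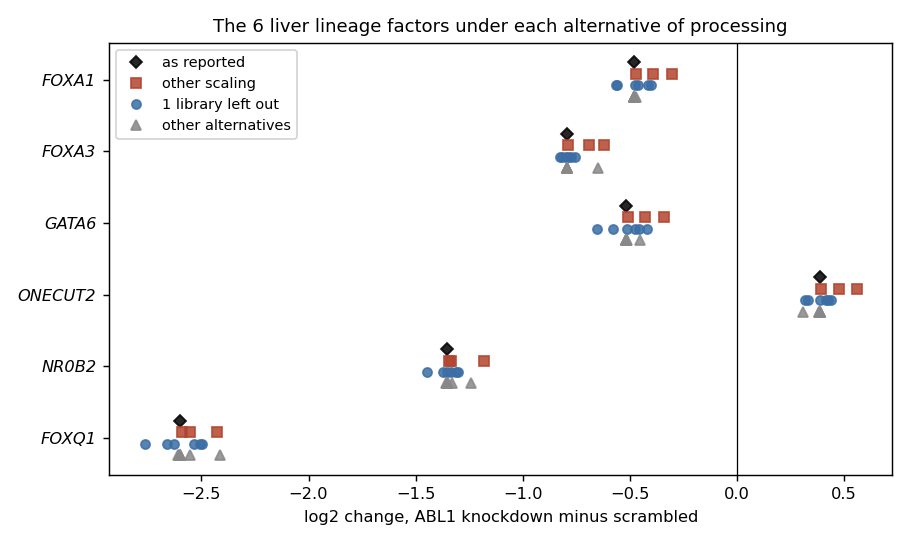
Log2 change (ABL1 knockdown minus scrambled) of the 6 factors as reported (diamonds) and under other scalings (squares), with 1 library left out (circles) and under the remaining alternatives (triangles). FOXA1 ranges from -0.56 to -0.31, ONECUT2 from 0.31 to 0.56 and FOXQ1 from -2.77 to -2.42, and no point crosses 0.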

How the data were processed

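RNA-seq libraries of Huh7 cells, 3 with an ABL1 hairpin and 3 with a scrambled hairpin, were grouped by their titles. The authors deposited 1 signal value per RefSeq transcript and library; the submitters' processing notes name HISAT2 2.0.4, HTSeq 0.6.1 and hg38, with no role stated. How the values were transformed, the annotation, the row filter, the strand setting and the handling of reads shared by transcripts are not stated. The deposited signal behaves as a scaled square root: a squared value equals a library-specific step multiplied by the read count plus 0.375, and 100% of rows gave whole reads within 0.05 in each library.

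Reads times the relative step are the normalized counts. Transcripts with a mean of at least 10 (8600 of 10191) were tested with limma 3.58.1 in R 4.3.3 (lmFit, eBayes with trend) on log2(normalized count + 1). Tests were two-sided, p-values were adjusted after Benjamini and Hochberg over all 8600, and the threshold was 0.05. The voom test on the recovered reads called 4464 transcripts, against 4460. Ratios between genes used exact permutation tests. Levels per kilobase, GC content and overlaps used GENCODE 29 models (GRCh38), and promoters came from RefSeq (GRCh38.p14). Simulated data were used to test the fit. The factors and gene lists were chosen with earlier results of these data known. Named in each list were up to 4 genes with the smallest p in each direction, with a fixed set of liver partners. Some single genes are not reported here.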

Additional observations from a re-analysis of the deposited data

How the results depend on the processing

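All 102 results of the 6 factors under 17 alternatives kept their direction and stayed past the threshold; the GC correction among them was chosen after seeing the data. Over these, log2 changes ran from -0.56 to -0.31 for FOXA1 (adjusted p up to 0.0201), -0.83 to -0.62 for FOXA3, -0.65 to -0.34 for GATA6 (up to 0.0166), 0.31 to 0.56 for ONECUT2 (up to 0.0115), -1.45 to -1.18 for NR0B2 and -2.77 to -2.42 for FOXQ1. Of all calls, 63.8% were higher in knockdown with equal library totals, against 47.2% as reported. Deviations from the group mean correlated at 0.0471, 0.0765 and 0.0768 for same-numbered libraries, and at -0.1525 to 0.0886 for differently numbered ones. These small values do not settle whether replicate numbers pair the libraries. With the replicate block, 4821 transcripts were called against 4460, the 6 factors passed, and the GATA and cut homeobox list had 1 gene lower in place of 0 (0 to 2 with a library left out).

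Counts in short lists moved most. Higher forkhead genes numbered 3 with no filter and with equal totals and 2 with quantile normalization and the GC correction, against 1, and lower ones 3 with a minimum of 50, against 7. Higher hepatocyte products numbered 1 with a minimum of 50 or reads summed per gene, 6 with quantile normalization, 7 with equal totals, 4 with the GC correction and 1 to 4 with a library left out, against 2. Higher endoderm factors numbered 1 with quantile normalization and the GC correction and 2 with equal totals, against 0. With equal totals, 3 other liver factors and 2 GATA and cut genes were higher, against 1 each, and 3 epithelial and mesenchymal genes were lower, against 5. With the GC correction 0 other liver factors were higher, because PPARGC1A has no gene model matched and was not in that fit. Rows with few reads, such as that of FOXA2, gave imprecise changes: the log2 change of FOXA2 has an SE of 0.50.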
